A study of Arabidopsis thaliana with 2 samples.

Results

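The genes described here are 95 nuclear transcripts of Arabidopsis thaliana that were lower in the double knockout KO-HsfA1d/A1e than in the wild type under high light. They do not include 24 genes left out by name, which were heat shock, heat-linked and defence-linked genes and WRKY transcription factors. The 95 were chosen on the values of the same 2 arrays. Each intensity was taken as log2(intensity + 16), a probe set had to have a mean at or above the median over all 16541 probe sets (8.44, an intensity of 332), to name 1 nuclear gene, and to have a mutant minus wild-type difference of -0.585 or less, which is close to 1.5-fold. Of the 4146 probe sets that named 1 nuclear gene and passed the mean filter, 119 met the limit, which is 2.87%, and 95 of these remained once the 24 were set aside. The count and every difference below follow from that choice and carry no test. The lower values in the knockout hold by construction, and the set is what remains of many functions, not a pathway.

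The wild-type group was ecotype Columbia. The mutant group, also Columbia, carried knockouts of both HsfA1d and HsfA1e, and its alleles are not given in the sources. Both were grown on MS medium in days of 16 h (25°C) with nights of 8 h (22°C) under 100 µE m-2 s-1. Plants of 2 weeks were then moved to 400 µE m-2 s-1 for 30 min, and rosette leaves were taken. RNA was labelled with biotin and hybridized to Affymetrix arrays, 1 array per genotype, so there is no replicate error, no p-value and no untreated array, and whether a value reflects the genotype or the single plant sample cannot be told apart.

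HsfA1d and HsfA1e belong to the class A1 heat shock factors, which lie dormant in the cytosol bound by chaperones and are released when misfolded proteins accumulate. The freed factors form trimers, enter the nucleus and bind heat shock elements in the promoters of chaperone genes and of genes for secondary regulators. Bright light can warm the leaf and oxidize its chloroplasts, and plants answer with chaperones, with ubiquitin ligases that mark damaged proteins for the proteasome, and with changes in membranes, walls and signalling proteins.

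As to the arrays as a whole, the wild-type array had a median intensity of 334 and the mutant array one of 331.9. The median difference over the 4146 nuclear probe sets was 0.04 log2 units. At the same size in the other direction, 68 of the 4146 (1.64%) were higher in the mutant. A listed gene counts as measured, here and below, where a probe set named it alone. Others may lie on probe sets with no symbol or several, which were not searched. Of 14 rosette leaf markers, 5 were measured, with wild-type intensities from 1379 for LHCB4.3 to 22929 for RCA and differences from -0.03 to 0.13. Markers of other tissues were mostly not measured in this sense. PYK10, the 1 measured of 6 root markers, had 2555 against 3758 (0.55), where here and below the wild-type intensity comes first, the mutant intensity second and the mutant minus wild-type log2 difference stands in brackets. The guard cell marker FMA had 339.7 against 316 (-0.10) and the cell division marker AUR1 had 156 against 166 (0.08). Both were under the mean filter. The single markers stand for their tissues only weakly, and a part of tissue composition in the results was not tested. In bulk leaf RNA, fewer cells of a type and less RNA per cell cannot be told apart. No probe set here named HsfA1d or HsfA1e alone, so the genotype labels were not checked against the targeted genes.

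The members spanned a modest range. Their median difference was -0.80 log2 units, with the middle of the distribution between -1.09 and -0.67, and the ratio of wild-type to mutant intensity ran from 1.51 to 8.10 with a median of 1.77. On the log2(intensity + 16) scale, on which sizes are counted throughout, 32 of the 95 were at least 2-fold lower, beside 53 of the 4146 (1.28%), and 63 lay between the limit and 2-fold. At least 4-fold lower were 2. The 24 genes left out by name had a median difference of -1.70, and 21 of them were at least 2-fold lower. Wild-type intensities of the members ran from 434.5 to 22027 with a median of 1092, and mutant intensities from 147 to 8800.3 with a median of 549.5. In the mutant, 25 members were under the intensity that marks the filter and 70 were at or over it, while 0 were under it in the wild type, which follows from a filter on the mean and a lower mutant value. Intensities of different probe sets are not comparable between genes, so the level of a gene is compared here only between the arrays. Where a probe set is called bright or dim, this describes its intensity and not the amount of the transcript. Each member had 1 probe set that named it alone, and 0 had another such probe set. Probe sets with no symbol or several were not searched, so no repeat measurement of a member is given here. Where other nuclear genes past the filter had a pair of probe sets, 13 in all, their differences had an SD of 0.20 around the gene's mean and a largest gap of 0.56.

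**Figure D1:**
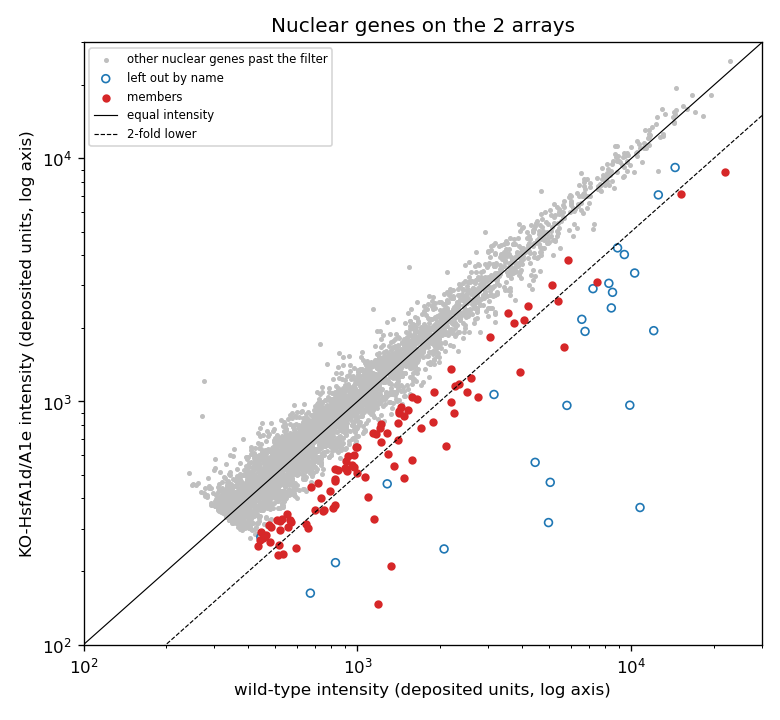
Intensity of each nuclear gene past the mean filter on the wild-type array (horizontal, log axis) and on the mutant array (vertical, log axis), 1 array each. Red points are the 95 members, open blue points the 24 genes left out by name, the solid line is equal intensity and the dashed line 2-fold lower; 34 members lie on or below the dashed line, which is drawn without the added 16, and 61 lie above it.

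The lowest differences among the members belonged to genes of unrelated or unknown function. AT4G19430, for which no role is given here, had 1193 in wild-type leaves and 147 in mutant leaves, a difference of -2.89 log2 units, an 8.10-fold ratio. AT3G60420, of the phosphoglycerate mutase family, had 1322 in wild-type leaves and 209.5 in mutant leaves, a difference of -2.57 log2 units, a ratio of 6.31. These were the only members at least 4-fold lower. The next, AT1G26800, a RING-type ubiquitin ligase, had 1151 against 329 (-1.76). It was followed closely by AT3G10020, with 5667 against 1675 (-1.75), and AT5G10695, with 2097 against 656 (-1.65), neither with a role given here. These 5 were the members at least 3-fold lower on the log2(intensity + 16) scale, and the other 90 were under that size.

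**Figure D2:**
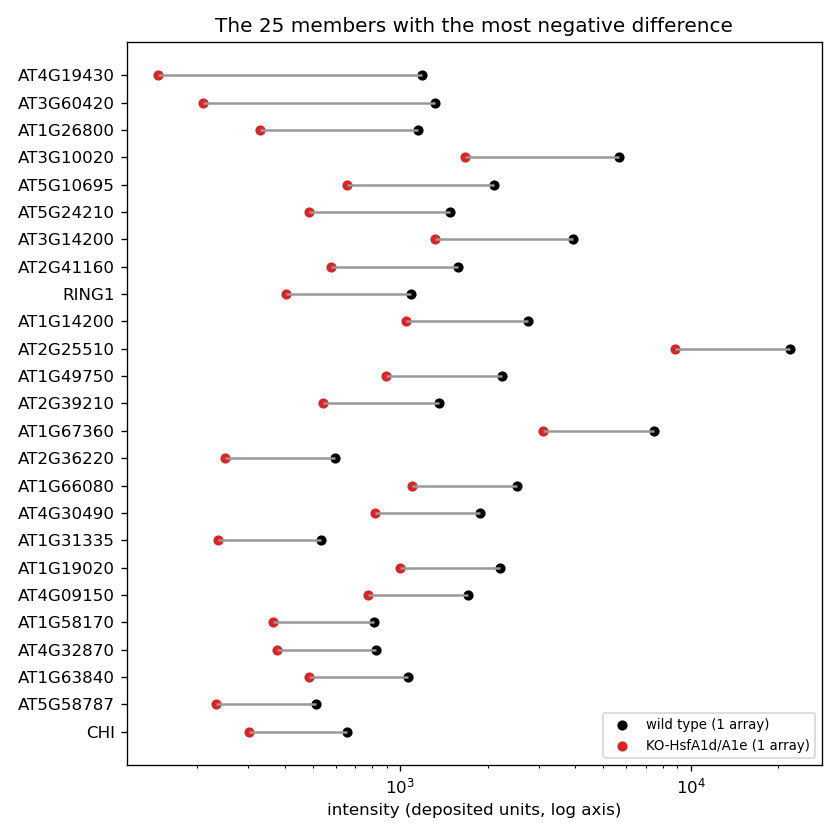
Intensities of the 25 members with the most negative differences on the wild-type array (black) and the mutant array (red), on a log axis, with a grey line joining the 2 values of a gene. AT4G19430 and AT3G60420 have the longest lines, at 8.10-fold and 6.31-fold.

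Proteins that fold, carry or repair other proteins were 7 of the members. Only listed genes had been left out, not chaperones as a class, so DnaJ and calnexin genes remain here. The differences of the 7 ran from -1.56 to -0.69 with a median of -0.98, and 2 of the 7 were at least 2-fold lower. AT3G14200, whose product has the DnaJ domain that stimulates the HSP70 ATPase, had 3931 against 1322 (-1.56). AT4G28480, also a DnaJ protein, had 1405 against 697 (-0.99), a ratio of 2.02 by intensity and just short of 2-fold with the added 16. The differences of the 2 DnaJ genes were 0.57 log2 units apart. AT1G66080, related to Hikeshi, which in human cells carries HSP70 into the nucleus, had 2521 against 1095 (-1.19). BOB1 (AT5G53400), a NudC-domain protein with small heat shock protein activity that is needed for normal development and heat tolerance, had 2358 against 1185 (-0.98). AT1G01940, a cyclophilin that isomerizes peptide bonds before proline, had 997 against 506 (-0.96). The latter pair lie next to each other by size within the group, so their nearly equal differences show no link between them. MSRB9 (AT4G21850), a methionine sulfoxide reductase, which returns oxidized methionine to its reduced form, had 524 against 296 (-0.79). AT5G07340, of the calnexin family of endoplasmic reticulum lectin chaperones, had 452 against 274 (-0.69), the least negative of the 7.

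Ubiquitin and proteolysis genes gave 13 members between -1.76 and -0.65 with a median of -0.91, fewer than the 28 members given no role. Roles were assigned to members alone. Neither this count nor those of the other role groups therefore has a share over the 4146 beside it. At least 2-fold lower were 6 of the 13. RING-type ubiquitin ligases, which pass ubiquitin to a chosen protein, numbered 6, and 5 of these were at least 2-fold lower. After AT1G26800, described above, came RING1 (AT5G10380), known for a part in cell death after pathogen or toxin attack, with 1092 against 405 (-1.40). AT1G14200 had 2758 against 1045 (-1.39). AT1G63840 had 1062 against 487 (-1.10). These 3 ligases were all more than 2-fold lower. AT5G58787 had 515 against 233 (-1.09) and lay near the lower edge of the mean filter. AT1G55530 had 4057 against 2155 (-0.91), so that it alone of the 6 ligases stayed under 2-fold. AT2G41160, with a domain that binds ubiquitin, had 1579.6 against 576 (-1.43) and was the remaining gene of the group past 2-fold.

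The 6 other genes of ubiquitin and proteolysis were all between the limit and 2-fold. AT5G51740, an M48 metallopeptidase, had 971 against 538 (-0.83). SK18 (AT1G10230), a SKP1-like protein of the kind that links cullin ligases to F-box proteins, had 915 against 519 (-0.80). AT3G52500, an aspartyl protease, had 1405 against 812 (-0.78). These genes follow each other by size within the group, so their span of 0.05 log2 units shows no link between them. AT4G15420, of the UFD1 family that helps extract ubiquitylated proteins for degradation, had 1278 against 741 (-0.77). DER1 (AT4G29330), a Derlin of the machinery that exports misfolded proteins from the endoplasmic reticulum, had 1534 against 923 (-0.72). AT1G79210, an alpha subunit of the 20S proteasome core, had 1167 against 737 (-0.65) and was the least negative of the group.

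**Figure D3:**
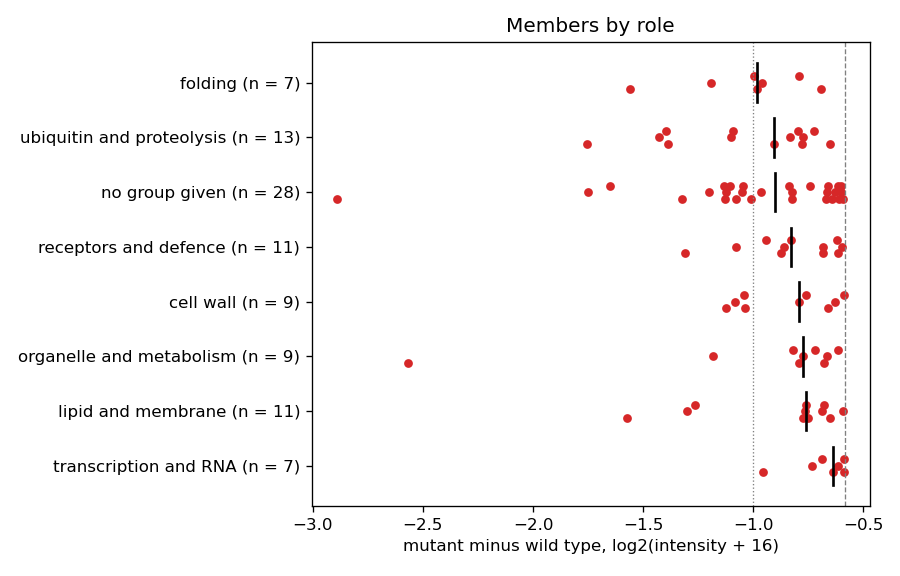
Mutant minus wild-type difference in log2(intensity + 16) for each of the 95 members (red points), by role group, with the group median as a black bar, the limit of -0.585 dashed and 2-fold dotted. Group medians lie between -0.98 for folding and -0.64 for transcription and RNA, without the genes left out by name, WRKY transcription factors among them. The roles were assigned after the members were known, and all points lie left of the limit by the choice of members.

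Receptors, kinases and defence proteins gave 11 members, from -1.31 to -0.60 with a median of -0.83, of which 2 were at least 2-fold lower. AT1G49750, a leucine-rich repeat protein, had 2243 against 895 (-1.31). ECS1 (AT1G31580), a small wall-associated protein named from work on Xanthomonas infection, had 15143 against 7167 (-1.08). The other 9 were under 2-fold. AT1G16260, of the wall-associated kinase-like family, which spans the plasma membrane with its outer part in the wall, had 702 against 358 (-0.94), and the related AT1G69730 had 1205 against 780.2 (-0.62). Both receptor-like kinases were thus lower, by different amounts. AT1G72900, with the TIR domain found in intracellular immune receptors, had 794 against 426 (-0.87). AT2G43550, a defensin-like peptide, had 739 against 400.2 (-0.86). AT5G45510, another leucine-rich repeat protein, had 1221 against 682 (-0.83). The latter 3 genes follow each other by size within the group, so their span of 0.05 log2 units shows no link. PIA1 (AT2G20630), a type PP2C phosphatase that the gene table names for its induction by a bacterial effector, had 1649 against 1022 (-0.68). The protein kinase AT1G48210 had 463 against 282 (-0.68). The kinases AT5G47070 and AT1G66880 were close to the limit, with 506 against 324 (-0.62) for the former and 475 against 309 (-0.60) for the latter.

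Genes acting in the cell wall and outside the cell gave 9 members, from -1.12 to -0.59 with a median of -0.79, of which 4 were at least 2-fold lower. AT1G58170, a dirigent protein of the family that steers phenol coupling, had 813 against 364 (-1.12). CHI (AT2G43570), a chitinase that attacks fungal walls, had 658 against 302 (-1.08), and AT3G47540, also of the chitinase family, had 755 against 358 (-1.04). The differences of the 2 chitinase genes were 0.04 log2 units apart, but they follow each other by size within the group, so this shows no link between them. XTH18 (AT4G30280), a xyloglucan endotransglucosylase/hydrolase that cuts and rejoins wall polymers, had 746 against 356 (-1.04). EPC1 (AT3G55830), a glycosyltransferase needed for cells to stay attached, had 1897 against 1090.4 (-0.79). AT3G28480, a prolyl 4-hydroxylase, an enzyme type that modifies wall glycoproteins, had 827 against 481 (-0.76). AT4G34480, a glycosyl hydrolase, had 552 against 343 (-0.66). Of the pectin genes, the methylesterase inhibitor AT1G23205 had 719.6 against 460.2 (-0.63) and the methylesterase PMEPCRF (AT5G53370) had 1223 against 809 (-0.59). An enzyme and an inhibitor of the same reaction type were therefore both among the members, both near the limit.

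Lipid, membrane and trafficking genes gave 11 members, from -1.58 to -0.59 with a median of -0.76, of which 3 were at least 2-fold lower. AT5G24210, a lipase-like hydrolase, had 1478 against 485 (-1.58). AT2G39210, a transporter of the major facilitator type, had 1358 against 542 (-1.30). AT1G67360, a protein of the surface of lipid droplets, had 7483 against 3107 (-1.26) and was 2.41-fold lower from a high wild-type intensity. AT1G70810 and AT3G57880, with the C2 domain that binds membrane lipids often with calcium, had 951 against 549.5 (-0.77) and 1422 against 900.1 (-0.65). AT1G80910, listed as CCZ1b in the gene table and part of the complex that matures vacuole-bound endosomes, had 565 against 325 (-0.77). AT1G73480, an alpha/beta hydrolase, had 4184 against 2465 (-0.76). AT5G19240, a GPI-anchored protein, had 1475 against 869 (-0.75). AT1G80910, AT1G73480 and AT5G19240 follow each other by size within the group, so their span of 0.01 log2 units shows no link between them. VPS60.1 (AT3G10640), of the ESCRT machinery that buds vesicles into endosomes, had 458 against 279 (-0.69). AT1G69840, with the band 7 domain of membrane scaffolds, had 2190.1 against 1361 (-0.68), and AT4G23470, of the PLAC8 family, had 1445 against 953 (-0.59), close to the limit.

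Organelle and metabolic genes gave 9 members with a median of -0.77, and 2 were at least 2-fold lower. The first was AT3G60420, given above, and the second AT4G30490, an AFG1-like ATPase, a protein type of mitochondria that in yeast helps degrade respiratory chain subunits, with 1889 against 822 (-1.18). The glutaredoxin AT2G30540, which belongs to a family that acts on protein thiols, had 573 against 318 (-0.82). AT5G17760, another AAA-type ATPase, had 831 against 473 (-0.79). CYTC-2 (AT4G10040), a cytochrome c that carries electrons in mitochondria, had 5149.6 against 3005 (-0.77). PPDK (AT4G15530), pyruvate orthophosphate dikinase, which makes phosphoenolpyruvate, had 3056 against 1849.8 (-0.72). AT5G51830, a fructokinase-like enzyme, had 441 against 269 (-0.68) and lay near the lower edge of the mean filter. RAP (AT2G31890), which acts in the maturation of chloroplast ribosomal RNA, had 968 against 604 (-0.67). AT2G31810, a regulatory subunit of acetolactate synthase in branched-chain amino acid synthesis, had 3552 against 2310.1 (-0.62). Mitochondrial, plastid and cytosolic functions were thus all represented, each by a few genes.

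Transcription and RNA genes gave 7 members, from -0.96 to -0.59 with a median of -0.64, and 0 of the 7 were at least 2-fold lower. WRKY transcription factors were left out by name, so these values do not cover them. AT2G27580, with the A20/AN1 zinc fingers of stress-associated proteins, had 2270.3 against 1161 (-0.96). XCT (AT2G21150), a nuclear protein named for its effect on the circadian clock, had 434 against 255 (-0.73), and its mean was the closest of all members to the mean filter. AT3G01210, an RNA-binding protein, had 851 against 523 (-0.69). These 3 were followed by 4 genes closer to the limit. AT1G66070, a subunit j of translation initiation factor eIF3, had 827 against 525 (-0.64). STZ (AT1G27730), also called ZAT10, a zinc finger repressor induced by bright light and many stresses, had 1414 against 917 (-0.62). It was the 1 measured gene of a list of 21 named for induction by heat or high light, other than chaperones. That list also holds HsfA1d and HsfA1e, the genes knocked out in the mutant. AT4G02940, a 2-oxoglutarate oxygenase that acts on RNA methyl marks, had 988 against 651 (-0.59). AT5G52010, a zinc finger protein, had 677 against 445 (-0.59), the least negative of all 95.

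The remaining 28 members were put in no role group, and 13 of them were at least 2-fold lower. Their median difference was -0.90. They include AT4G19430, AT3G10020 and AT5G10695, given above. AT2G25510, whose probe set had the highest intensity of all members on both arrays, had 22027 against 8800.3 (-1.32), and AT5G35320 had 5395 against 2594 (-1.05). AT1G67865, another bright probe set, had 5884 against 3803 (-0.63). The former pair was over 2-fold lower, whereas AT1G67865 was nearer the limit. AT2G36220 had 595 against 250.2 (-1.20), AT1G31335 had 534 against 235 (-1.13) and AT1G19020 had 2199.9 against 997 (-1.13). AT4G09150, of the T-complex protein 11 family, had 1709 against 775 (-1.13), AT4G32870 had 828 against 376 (-1.11) and AT2G18690 had 1298 against 606 (-1.08). These 6 had ratios of wild-type to mutant intensity between 2.14 and 2.38, and the ungrouped members past 2-fold were completed by AT5G47830 with 2587 against 1246 (-1.04) and AT1G23180, an armadillo repeat protein, with 649 against 314 (-1.01).

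Of the 15 ungrouped members under 2-fold with the added 16, AT4G14270 had 517 against 257 (-0.96), a ratio of 2.01 by intensity, and AT3G15770 had 559 against 306 (-0.84). RD2 (AT2G21620), named for its response to desiccation, had 3741 against 2105 (-0.82). AT4G23885, the next by size, had 480.4 against 265 (-0.82). AT2G20940 had 901 against 531 (-0.74), AT1G77770 had 532 against 328 (-0.67) and AT3G50910 had 911 against 569 (-0.66). The kelch repeat protein AT3G07720 had 519.7 against 323 (-0.66), and the ankyrin repeat protein AT2G01680 had 484 against 304 (-0.64). The last 5 of the ungrouped members lay past the limit by up to 0.03 log2 units. They were AT3G11230, a Yippee family protein, with 925 against 597 (-0.62), AT3G11800 with 1144 against 743 (-0.61), AT3G15630 with 996 against 651 (-0.60), AT3G24100 with 1588 against 1040.4 (-0.60) and AT4G02220 with 446 against 289.9 (-0.59).

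At the limit itself the members gave way to their neighbours in size without a gap. The 3 nuclear genes just outside were AT4G27450 with 3185 against 2121 (-0.58), AT1G03400 with 646 against 426 (-0.58) and AT3G47550 with 468 against 308 (-0.58). The 3 just inside, AT4G02940, PMEPCRF and AT5G52010, lay between -0.590 and -0.587. The steps across the limit were far smaller than the SD of 0.20 between probe sets of a gene.

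Relatives of the members by name were looked at next. Genes that share a symbol stem with a member were measured for 5 of the members with a name, 20 relatives in all, and their differences ran from -0.33 to 0.56. Each of the 5 symbol stems held 1 member. A relative past the filter at or under -0.585 would itself have been a member, which bounds the 14 relatives past the filter on the lower side, so the contrast with the members is a description and carries no test. XTH18 at -1.04 stood beside XTH19 (AT4G30290), which had 727 against 1078 (0.56), the opposite sign. The other measured relatives of that family were XTH32 with 2020.5 against 2139 (0.08), XTH16 with 239 against 288 (0.25), XTH33 with 49.3 against 60.9 (0.24) and XTH20 with 20.7 against 15.3 (-0.23). Of these, XTH16, XTH33 and XTH20 were under the mean filter, and XTH20 was dim on both arrays. CYTC-1, the other mitochondrial cytochrome c gene of the table, had 7075 against 7028 (-0.01) against -0.77 for CYTC-2, and CYTC6A had 875 against 1009 (0.20). The 2 mitochondrial cytochrome c genes thus had unlike differences, with the lower value in the mutant on the CYTC-2 probe set. Among the Derlins, DER2.1 had 959.6 against 879 (-0.12) and DER2.2 had 326 against 425 (0.36), against -0.72 for DER1. For MSRB9 at -0.79, the relatives MSRB6, MSRB5 and MSRB3 had differences of -0.12, -0.12 and 0.01. VPS60.2, the closest in name to VPS60.1 at -0.69, had 821 against 648 (-0.33), and 7 further genes with the VPS stem, whose products belong to several sorting complexes, lay between -0.09 and 0.23. Among the latter, VPS9B, VPS2.2 and VPS20.1 were under the mean filter. Related sequences can share signal on a probe set, and its part in these values was not tested.

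**Figure D4:**
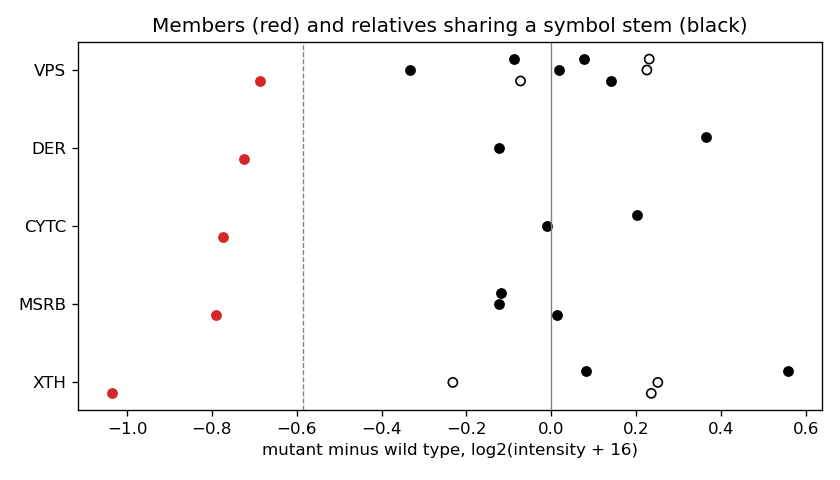
Mutant minus wild-type difference in log2(intensity + 16) for the 5 members with measured relatives (red) and for the 20 relatives sharing a symbol stem (black), 1 row per stem. Filled points passed the mean filter, open points did not, and the dashed line is the limit of -0.585; the relatives lie between -0.33 and 0.56.

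Neighbours along the chromosome were taken whether or not they were members. Of the 95 members, 55 had at least 1 adjacent protein-coding gene that was measured alone, 70 such neighbours in all. Only AT1G66070 and AT1G66080 were adjacent to each other and both members, with the differences of -0.64 and -1.19 given above. The 40 neighbours past the filter, this pair included, had a median difference of -0.11, beside 0.04 over the 4146, with 23 of the 40 below 0. The pair had been chosen for low values. Without it, the other 38 had a median of -0.07, and 21 of them were below 0. These 38 are bounded on the lower side, since a gene meeting the limit became a member unless left out by name. Of the 40, this pair alone met the limit, beside 2.87% of the 4146, and 0 were higher by the same size. Each gene of the pair was counted as the neighbour of the other, so the comparison is a description and carries no test. Next to the chitinase gene AT3G47540 lay AT3G47550, given above as just outside the limit, and next to XTH18 lay XTH19, which had the highest difference of the 40. AT5G47060, next to the kinase gene AT5G47070, had 1320.4 against 887 (-0.57). On the other side of AT1G66080, AT1G66090 had 418 against 89.6 (-2.04), but it was under the mean filter.

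Of the lists of stress genes, few entries had a probe set that named them alone. Of 24 early general stress and touch genes, 2 were measured, both under the mean filter. PUB22 had 41.1 against 20.01 (-0.67) and PUB23 129.9 against 68.4 (-0.79), both ubiquitin ligases of the U-box type and both dim on the 2 arrays. Of 13 salicylate and defence genes, 2 were measured, again under the filter, GRX480 with 173 against 42.7 (-1.68) and SAG101 with 61.4 against 54 (-0.14). The lists thus added only STZ to the members, and they say little about their pathways at this coverage.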

How the data were processed

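Total RNA from rosette leaves was labelled from 100 ng and hybridized to Affymetrix arrays, per the labels' protocols. The authors deposited a linear intensity for each probe set on each array, with no detection calls. Summarization, background correction and scaling by the authors are not stated in the labels or the file, and the values were used as deposited. The number of arrays, 1 per genotype, limits the precision. Probe sets were named through the annotation of the platform in GEO, which may be outdated, and brought to the names of the TAIR10.1 gene table by Entrez identifier. Of 16541 probe sets, 9139 had 1 symbol, 340 several and 7062 none, and 9054 named 1 nuclear gene. The gene table matched 94 of the 95 members by identifier, and AT1G67865 was placed by its locus name. Both intensities were increased by 16 before log2, so log2 differences of dim probe sets are understated, while ratios use the deposited intensities.

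The members and lists were chosen with earlier results of these data known. Every member is named with its values. The planned naming rule took the 25 most negative members, the 5 brightest, 2 per function class, and 3 on each side of the size limit and next to the mean filter. Keywords in the symbols and synonyms placed only 9 members in a function class, so role groups were assigned by hand from general knowledge after the members were known, for 67 of the 95. Roles of genes that the table lists by locus alone are background of that kind. Promoter motifs and protein relatives were planned but not analysed here, and relatives were taken instead from shared symbol stems, after the data were seen. Alternatives were median centring, quantile normalization, loess (span 0.3), pseudocounts of 1 and 64, 3 other filters, 2 other size limits and the removal of the _s_at and _x_at probe sets. Python 3.11.15, numpy 2.4.6, pandas 2.3.3 and statsmodels 0.14.6 were used.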

Additional observations from a re-analysis of the deposited data

How the results depend on the processing

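No paired analysis was possible because a single array stands for a genotype, and no replicate could be left out. The number of genes kept by the rule was 95 and changed by more than 1.5 times under another mean filter or size limit alone, which alters the genes counted by construction. It was 465 with no expression filter, 44 with the filter at percentile 75, 32 at 2-fold and 338 at a limit of -0.32 log2 units. The median difference, -0.80, became -1.19 at 2-fold and -0.45 at the limit of -0.32. The scalings and pseudocounts gave between 83 and 108 genes, and the filter on the brighter array 136. Of the 95 members, 82 were kept under every scaling and pseudocount, and the 13 lost under at least 1 of them all had differences between -0.64 and -0.59. Of 475 differences of single members under those settings, 2 moved by more than the SD between probe sets, AT4G19430 to -2.57 and AT3G60420 to -2.34 with a pseudocount of 64. The weakest value of any member at least 2-fold lower was -0.92. No probe set of a member ends in _s_at or _x_at. With no detection calls, signal over background limits the dim members in a way that could not be measured.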

Other observations

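The filter on the mean of both arrays sets aside genes that were bright in the wild type and dim in the mutant. With a filter on the brighter array instead, the same rule kept 136 genes, the 95 members and 41 others, of which 23 were at least 2-fold and 11 at least 4-fold lower in the mutant. The altered filter admits genes through the brighter array, which favours large differences. It added 238 nuclear genes, of which 41 (17.2%) were lower by the limit and 14 were higher by the same size, 3 of them by 2-fold. The genes below were chosen from these 41 after their values were seen, for their size and a known protein type, and small heat shock proteins among them are left aside. AT3G47480, a calcium-binding protein with EF hands, had an intensity of 537 against 41.9 (-3.26). AT1G35710, a leucine-rich repeat receptor kinase, had 517 against 52.5 (-2.96), and AT5G03350, a protein with a legume lectin domain, had 819 against 110.3 (-2.73). AT4G21323, a subtilisin-like protease, had 363 against 43.7 (-2.67). AT1G57630, with a TIR domain, had 447 against 82.4 (-2.23). AT1G66090, also with a TIR domain and adjacent to the Hikeshi-like AT1G66080, was described above. AT1G71000, a DnaJ protein, had 371 against 72.9 (-2.12). Of the 41, 1 had a mutant intensity below 31.9, the value under which 5% of the mutant array lay. The values carry no detection calls, so background of unknown size enters these differences.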
